A study of Mus musculus with 40 samples.

Results

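Aminoacyl-tRNA synthetases join each amino acid to its transfer RNA, the step that prepares it for the ribosome. The 37 genes described here are those of the 53863 gene symbols in the deposited table whose symbol is the one-letter code of an amino acid followed by ars, ars1 or ars2, together with Eprs, Farsa and Farsb. Symbols ending in 2 name the mitochondrial enzymes, 17 genes, and the other 20 form the cytosolic class. All 37 passed the filter on low counts in all 4 tissues. The table uses older symbols for most cytosolic genes, such as Gars for Gars1 and Kars for Kars1, and they are kept.

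Adult wild-type C57BL/6 mice on a standard diet were moved from ordinary housing to 4 °C (cold) or 30 °C (thermoneutral), and tissues were taken after 24 h. Messenger RNA was sequenced from brown adipose tissue (BAT), inguinal white fat (iWAT), epididymal white fat (eWAT) and liver, with 5 libraries in each of the 8 groups and 46508261 to 86681722 counts per library. All groups share strain, genotype and diet, and nothing in the labels says that equal replicate numbers mark the same mouse. Levels are CPM, a gene's count scaled to a fixed library total, on library sizes scaled by TMM, a method that aligns the bulk of genes between libraries. The cold effect is the log2 fold change of cold against thermoneutral with its standard error, and a gene is said to have risen or fallen at an adjusted p under 0.05 in edgeR's quasi-likelihood test over all genes.

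The cytosolic synthetases serve the translation of nuclear genes, and several of them sit in a multisynthetase complex held together by scaffold proteins. The mitochondrial synthetases are also nuclear genes, and serve the few proteins translated inside the organelle, all of them parts of oxidative phosphorylation or tied to it. Many cytosolic synthetase genes are known targets of ATF4, the transcription factor of the amino acid and integrated stress response, and brown fat is a tissue rich in mitochondria that makes heat in the cold.

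The tissues carried their markers. Ucp1, the uncoupling protein of brown fat, ran from 482 to 1136 CPM in thermoneutral BAT and from 12250 to 16650 in cold BAT, was at most 5.58 CPM in thermoneutral iWAT, and reached 58.8 to 874 CPM in cold iWAT. Alb, the albumin gene of hepatocytes, was at 113700 CPM or more in every liver library. The bulk values do not separate cell types: fewer cells of a type and less RNA per cell cannot be told apart. The summed level of 8 skeletal muscle markers ran from 154 to 4695 CPM in thermoneutral and 5.88 to 3438 CPM in cold BAT, with none at 0 and overlapping ranges. With these markers as a covariate 9103 of 15288 genes were called in BAT, and no member called there lost its call. In iWAT the muscle sum ran from 3.03 to 11040 CPM at thermoneutrality, library 3 being the highest, and from 2.24 to 2382 CPM in the cold. The part of muscle in the iWAT results was not tested. The summed level of 12 lymphocyte markers ran from 328 to 1428 CPM in thermoneutral iWAT and from 20.4 to 712 CPM in cold iWAT, with none at 0, and its part in the iWAT results was tested only as a covariate, given with them. The lines of shared symbols bear on the liver contrasts. In all 43 shared symbols that can tell, each set of values of the 5 thermoneutral liver columns stood beside each set of values of the other 35, as in a join of separate tables by symbol. For each of the other 7 groups this held in 0 or 1 symbols. In liver, being in that block of columns and the exposure cannot be told apart. The difference of the cold effect for liver minus BAT shares this limit.

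The start regions of the genes were searched for motifs, with no test between the classes. RefSeq promoters of build GRCm38.p6, 250 bases before to 50 after the gene start, were at hand for 27 members, 13 cytosolic and 14 mitochondrial. TGATGNAAT, the amino acid response element bound by ATF4, was searched on both strands and found in 3 of the 13 cytosolic and 0 of the 14 mitochondrial windows, against 1.08% of 27025 genes. These are 30-base windows of the gene's own strand around the matches, with the match in capitals, shown for 2 of these genes, which both rose in cold BAT.
Gars: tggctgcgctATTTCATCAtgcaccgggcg
Iars: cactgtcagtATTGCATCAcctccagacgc
The windows are chr6:55037960-55037989 and chr13:49682126-49682155, both on the + strand, and the matches read on the other strand. The match began 31 bases before the start of Gars and at base 7 of the transcribed part of Iars.

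The motif of the nuclear respiratory factor NRF1, searched the same way, was found in 5 of the 27 windows against 5.19% of all genes. It lay in Farsb, Kars and Tars among the cytosolic and in Mars2 and Iars2 among the mitochondrial genes. The windows of Mars2, which rose in cold BAT, and Kars, which fell there, are shown to set side by side genes with the same motif and opposite changes.
Mars2: ccgtccagctGCGCACGCGCcctttcccgt
Kars: gcccagcactGCGCCTGCGCagcgagagtc
They lie at chr1:55237169-55237198 on the + strand and chr8:112011384-112011413 on the − strand. TNAAGGTCA, the motif of the estrogen-related receptors, was in 0 of the 27 windows and 1.43% of all. Neither strand of the whole window of Cars2, the gene with the largest change, held any of the 3 motifs. Its 250 bases before the start, chr8:11550772-11551021 on the − strand, have no part in capitals for that reason.
Cars2: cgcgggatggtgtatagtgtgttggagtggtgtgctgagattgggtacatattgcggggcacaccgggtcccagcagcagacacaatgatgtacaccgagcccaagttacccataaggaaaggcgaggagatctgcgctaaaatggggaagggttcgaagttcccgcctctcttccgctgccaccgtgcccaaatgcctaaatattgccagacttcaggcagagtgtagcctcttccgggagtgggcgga

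In cold BAT 11 of the 20 cytosolic genes rose and 3 fell, while 7 of the 17 mitochondrial genes rose and 3 fell. Of the 15288 genes that entered the test in this tissue 60.2% passed it, 30.2% upwards and 30% downwards, so the total share called among the synthetases, 24 of 37, is near the background. With RLE size factors, another scaling, 12 cytosolic genes rose and 1 fell, where 4756 of all 15288 genes rose and 4398 fell. The median log2 fold change was 0.44 in the cytosolic class (range −0.32 to 1.25) and 0.13 in the mitochondrial class (highest 3.47), against −0.04 over all genes. The cytosolic genes that rose were Gars, Yars, Wars, Iars, Aars, Nars, Rars, Eprs, Hars, Farsb and Farsa, and those that fell were Mars1, Kars and Qars. The mitochondrial genes that rose were Cars2, Mars2, Sars2, Yars2, Ears2, Rars2 and Wars2, and Vars2 and Hars2 were among those that fell.

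**Figure D1:**
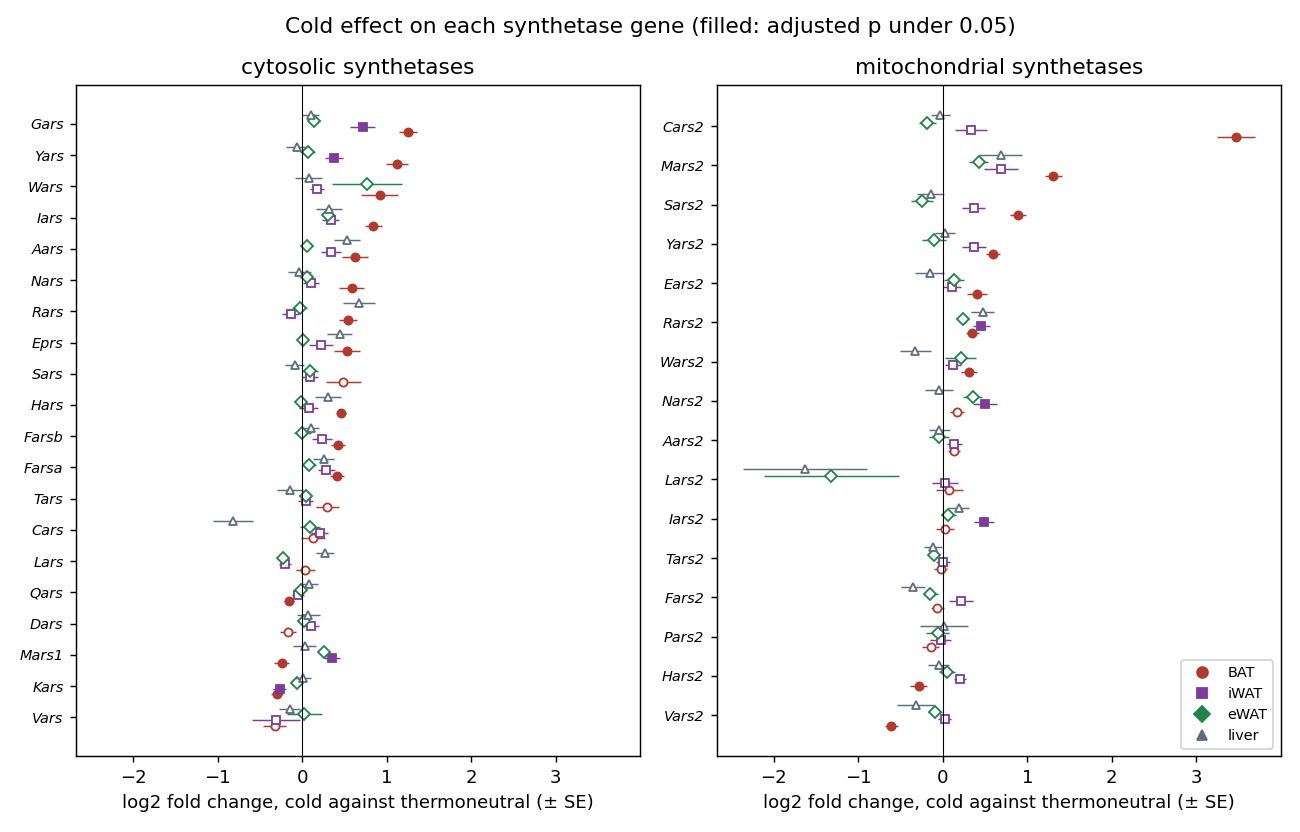
Log2 fold change of cold against thermoneutral with its standard error for the 20 cytosolic (left) and 16 of the 17 mitochondrial (right) synthetase genes in 4 tissues, ordered by the value in BAT; filled symbols have an adjusted p under 0.05. BAT spans −0.61 (Vars2) to 3.47 (Cars2) among the genes shown, and no symbol is filled in eWAT or liver.

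Gars, the glycyl-tRNA synthetase of both the cytosol and the mitochondria, had the largest rise of the cytosolic class in BAT. Its libraries read 92.8, 88.4, 110, 119 and 100 CPM in thermoneutral BAT (in the order of the replicate numbers, as in all such lists) and 291, 226, 225, 231 and 222 CPM in cold BAT. All 5 cold libraries were above all 5 thermoneutral ones, with cold library 1 the highest. The log2 fold change was 1.25 ± 0.11 (adjusted p = 1.6e-06).

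Yars, the tyrosyl-tRNA synthetase, read 26.2, 22.2, 28.6, 33.8 and 24.6 CPM in thermoneutral and 76.4, 54.0, 54.5, 52.3 and 52.4 CPM in cold BAT, without overlap (1.12 ± 0.13, adjusted p = 2.37e-05). Iars, the isoleucyl-tRNA synthetase and a member of the multisynthetase complex, read 30.7, 30.9, 34.0, 34.6 and 33.3 CPM in thermoneutral and 73.0, 50.4, 52.1, 56.7 and 55.7 CPM in cold BAT. Cold lay above thermoneutral in every library of Iars too (0.84 ± 0.10, adjusted p = 1.72e-05). The other 8 cytosolic genes that rose changed by 0.41 (Farsa, the catalytic subunit of the phenylalanyl-tRNA synthetase) to 0.92 (Wars, the tryptophanyl-tRNA synthetase, also known as an interferon-induced gene).

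The 3 cytosolic genes that fell did so by little. Kars, the lysyl-tRNA synthetase of both compartments, read 69.3, 71.3, 74.95, 64.6 and 81.0 CPM in thermoneutral and 62.0, 55.8, 59.4, 53.9 and 57.5 CPM in cold BAT (−0.30 ± 0.07, adjusted p = 0.00353), with no overlap. Qars, the glutaminyl-tRNA synthetase, ran from 47.5 to 52.5 CPM in thermoneutral and 41.5 to 46.4 CPM in cold BAT (−0.16 ± 0.06, adjusted p = 0.0326). Mars1, the methionyl-tRNA synthetase, ran from 49.5 to 61.7 and from 41.6 to 52.2 CPM, ranges that overlap (−0.24 ± 0.09, adjusted p = 0.0306). The calls of Qars and Mars1 were lost under several alternatives, among them DESeq2, with adjusted p up to 0.148 and 0.118. Mars1 overlaps Ddit3 on the other strand and shares 0.464% of its 50-base stretches with it, in libraries that do not keep the strand.

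The cytosolic genes were also counted by complex and by regulator, to be read against the 60.2% of all genes called in BAT, 30.2% higher and 30% lower. Of the 8 genes of the multisynthetase complex 3 rose (Iars, Rars, Eprs) and 3 fell (Kars, Mars1, Qars), with a median of −0.06. Of the 12 cytosolic genes outside it 8 rose and 0 fell, with a median of 0.47. The 12 cytosolic genes known as ATF4 targets had 7 that rose and 1 that fell (Mars1), median 0.56, and the other 8 cytosolic genes had 4 that rose and 2 that fell, median 0.13. The counts called, 6 of 8, 8 of 12, 8 of 12 and 6 of 8, lie near or modestly above that share. No test was made between these subsets.

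Cold library 1 stood apart from the other 4 BAT libraries of its group. It was the highest of them in Aars at 175 CPM against 110 to 122, in Tars at 59.2 against 34.6 to 39.6, and in Cars at 23.5 against 15.3 to 16.9. It also held the most Atf4 (312 CPM against 96.4 to 159), Ddit3 (54.9 against 13.9 to 19.9) and Mthfd2 (55.0 against 7.07 to 20.9), genes of the same stress response. The part of that response in the synthetase values was not tested. Without this library 11 cytosolic genes rose and 2 fell, and 9 mitochondrial genes rose and 2 fell.

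**Figure D2:**
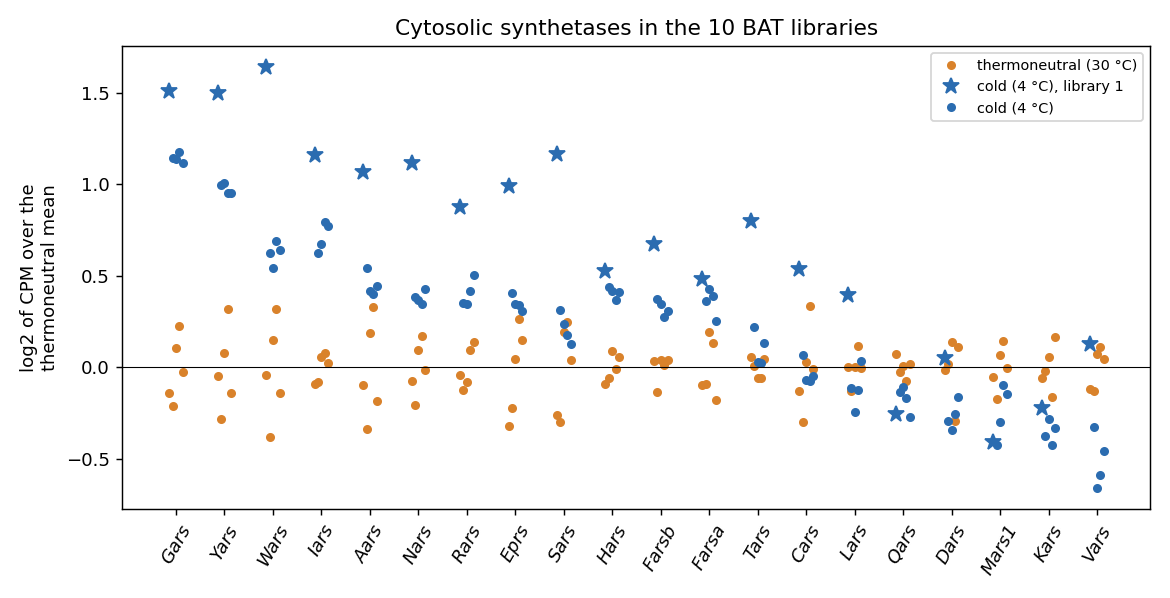
Log2 of the CPM of each of the 10 BAT libraries over the thermoneutral mean, for the 20 cytosolic genes ordered by their fold change. Cold library 1 (stars) is the highest cold library from Gars to Lars, and the other 4 cold libraries lie close together, above all thermoneutral points for Gars, Yars, Wars and Iars.

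Among the mitochondrial genes Cars2, the cysteinyl-tRNA synthetase that is also known to make cysteine persulfides, changed the most of all 37 members. Its libraries read 25.8, 22.5, 24.1, 28.3 and 19.9 CPM in thermoneutral and 268, 181, 219, 230 and 413 CPM in cold BAT. The lowest cold library lay far above the highest thermoneutral one, and the rise was 11.1-fold (log2 3.47 ± 0.22, adjusted p = 3.53e-07). Cars2 overlaps Naxd, a repair enzyme of nicotinamide nucleotides, on the other strand, and Naxd fell, from 32.4 to 36.8 CPM in thermoneutral to 23.4 to 32.2 in cold BAT (−0.28 ± 0.08, adjusted p = 0.0121). Cars, the cytosolic enzyme for cysteine, ran from 13.2 to 20.4 and from 15.3 to 23.5 CPM and did not pass the test (0.13 ± 0.14, adjusted p = 0.459).

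Mars2, the mitochondrial methionyl-tRNA synthetase, read 8.59, 8.96, 10.2, 11.1 and 7.88 CPM in thermoneutral and 21.8, 20.7, 22.8, 24.8 and 23.6 CPM in cold BAT. No libraries overlapped, and it rose by 1.31 ± 0.10 (adjusted p = 7.36e-07). Sars2, the enzyme for serine, read 12.0, 9.87, 12.6, 13.6 and 11.3 CPM in thermoneutral and 18.8, 23.5, 22.4, 20.7 and 22.7 CPM in cold BAT, again without overlap (0.89 ± 0.10, adjusted p = 1.3e-05). Yars2, for tyrosine, rose by 0.60 ± 0.08 (adjusted p = 6.66e-05), and Ears2, Rars2 and Wars2, for glutamate, arginine and tryptophan, rose by 0.41, 0.35 and 0.31.

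Vars2, the mitochondrial enzyme for valine, fell. It read 38.1, 39.0, 39.4, 38.0 and 36.8 CPM in thermoneutral and 20.97, 24.3, 26.9, 27.3 and 23.5 CPM in cold BAT, with all cold libraries below all thermoneutral ones (−0.61 ± 0.08, adjusted p = 3.22e-05). Hars2, for histidine, ran from 25.1 to 29.0 and from 17.1 to 25.9 CPM (−0.29 ± 0.10, adjusted p = 0.0252), and its call was lost under DESeq2 and without single libraries, with adjusted p up to 0.0747. Hars2 and Hars start on opposite strands over a shared stretch, 4.44% of the 50-base stretches of Hars2.

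**Figure D3:**
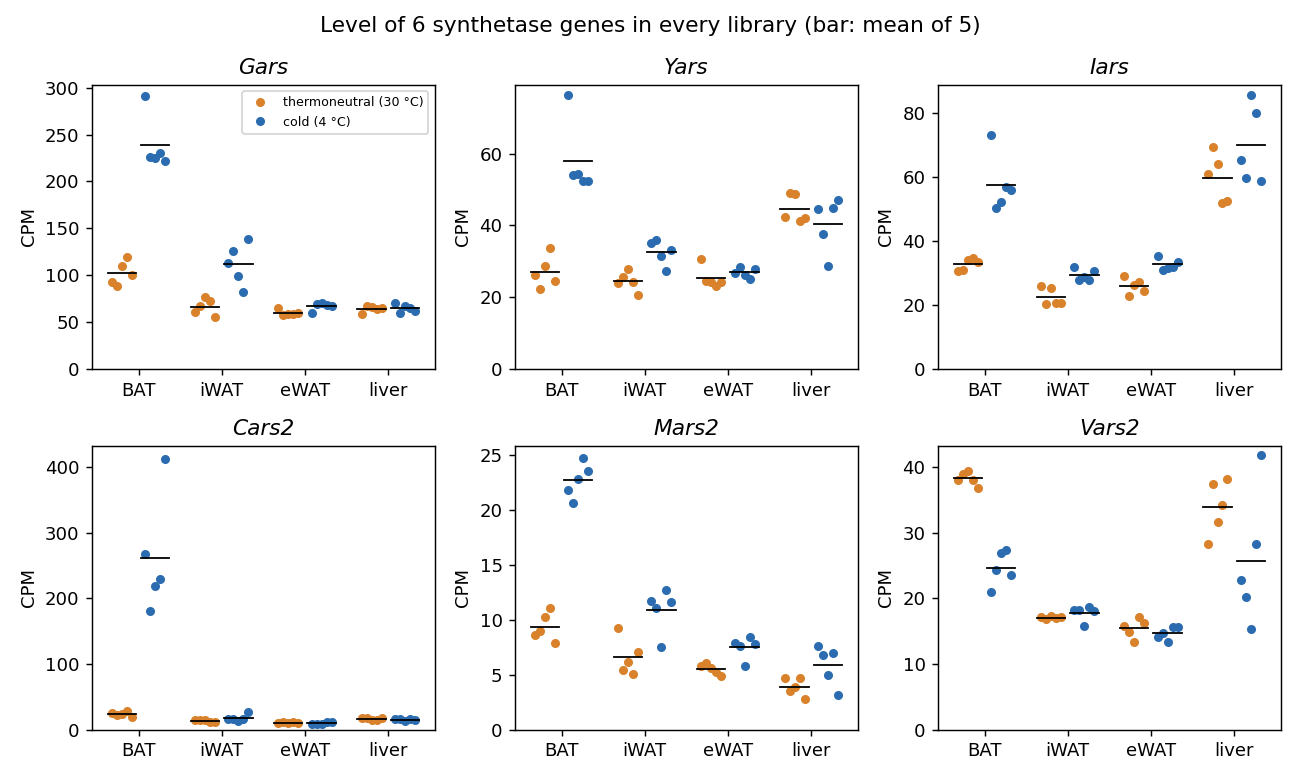
CPM of 3 cytosolic (Gars, Yars, Iars) and 3 mitochondrial (Cars2, Mars2, Vars2) synthetase genes in all 40 libraries, with the mean of 5 as a bar. In BAT the cold libraries of Cars2 lie between 181 and 413 CPM against 19.9 to 28.3 at thermoneutrality, and those of Vars2 between 20.97 and 27.3 against 36.8 to 39.4.

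The enzymes for the same amino acid were set side by side. The 17 mitochondrial genes form 18 pairs with a cytosolic gene, phenylalanine having both Farsa and Farsb. Eprs stands in both the glutamate and the proline pair and Fars2 in both phenylalanine pairs, so the pairs are not all separate genes. The log2 fold changes in BAT had the same sign in 12 of the 18 pairs and opposite signs in 6 (11 and 7 with library totals only), whether or not they passed the test. Positive values were common in both classes, in 15 of the 20 cytosolic and 11 of the 17 mitochondrial genes, and no test was made over the pairs. Both members rose in 4 pairs, those for glutamate, arginine, tryptophan and tyrosine, and in 0 pairs did both fall. The mitochondrial gene rose and the cytosolic one fell for methionine, and the reverse held for histidine. In 6 pairs the cytosolic gene rose and the mitochondrial one did not pass the test, and in 2, cysteine and serine, only the mitochondrial one passed it, upwards. In 2 more, that for valine among them, only the mitochondrial one passed it, downwards, and in 2, leucine and threonine, neither did.

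Lars2, the mitochondrial leucyl-tRNA synthetase, had by far the highest level of its class per length, 83.8 CPM per kilobase of exons as a mean over the 40 libraries, against 11.8 for the next, Iars2. It made up 74.3 ± 2.08% (SD, n = 5) of the summed CPM of the 17 mitochondrial genes in thermoneutral BAT. Its level moved with that of Rn18s-rs5, a gene model of ribosomal RNA sequence. Lars2 read 657, 954, 535, 586 and 548 CPM in thermoneutral eWAT and 959, 74.6, 52.0, 101 and 112 CPM in cold eWAT. Rn18s-rs5 read 46540 CPM in cold eWAT library 1 and 1661 to 2125 in the other 4. In both genes cold eWAT library 1 lay within or above the thermoneutral range and the other 4 far below it.

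In liver Lars2 read 2162, 1558, 1611, 1289 and 1188 CPM at thermoneutrality and 244, 1599, 59.5, 279 and 182 CPM in the cold. Rn18s-rs5 was at 94680 CPM in cold liver library 2 and at 1923 to 8543 CPM in the other 4, so that the same library stood out in both genes. The cold effect of Lars2 did not pass the test in eWAT (−1.32 ± 0.80, adjusted p = 0.438) or liver (−1.64 ± 0.73, adjusted p = 0.2). The same libraries stood out in 7SK, a small nuclear RNA without a poly(A) tail. It read 27.0 CPM in cold eWAT library 1 against 3.24 to 5.33 in the other 4, and 16.1 CPM in cold liver library 2 against 3.99 to 5.05. The thermoneutral libraries were at 15.8 to 21.2 CPM in eWAT and 7.99 to 15.1 CPM in liver, so the other 4 cold libraries of each tissue lay below all thermoneutral ones. The part of ribosomal RNA reads in the level of Lars2 was not tested, and sums over the class are therefore also given without it. The longest annotated transcript of Lars2 shares 0.078% of its 50-base stretches with Gm15564. Only that transcript was searched, 3894 bases against 11089 bases of exons, so sharing in the rest of the gene was not examined.

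**Figure D4:**
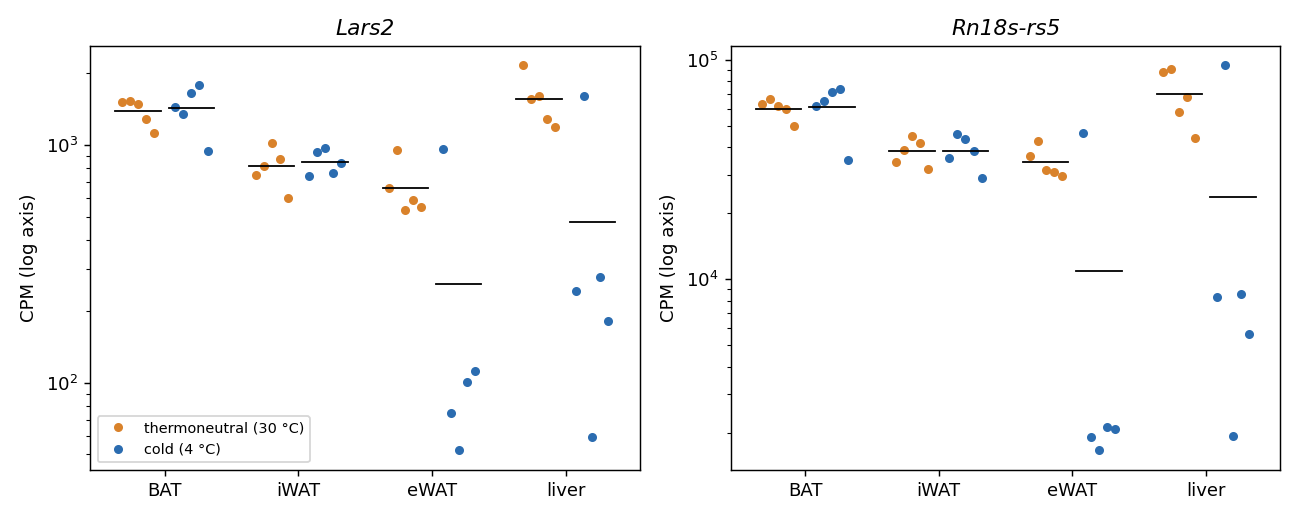
CPM of Lars2 (left) and of Rn18s-rs5 (right) in all 40 libraries on log axes, with the mean of 5 as a bar. Library 1 of cold eWAT (959 and 46540 CPM) and library 2 of cold liver (1599 and 94680 CPM) lie apart from the other 4 of their group in both genes.

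The levels of the classes over the 8 groups were compared per length and as a ratio within each library, which does not depend on the scaling between libraries. At thermoneutrality the level of the median cytosolic gene per kilobase of exons was 8.38 ± 0.93 CPM (SD, n = 5) for BAT, 8.22 ± 0.56 for iWAT, 8.53 ± 0.57 for eWAT and 12.7 ± 0.71 for liver. The median mitochondrial gene, on the same scale and in the same order of tissues, was at 5.49 ± 0.43, 2.35 ± 0.21, 2.23 ± 0.15 and 4.24 ± 0.23. In the cold the cytosolic median in BAT was 11.6 ± 1.10, above all thermoneutral libraries, and the mitochondrial one 5.45 ± 0.43. The mitochondrial result depends on the length used. Per kilobase of the longest transcript the mitochondrial median in BAT was 7.71 ± 0.60 CPM at thermoneutrality and 9.87 ± 0.57 in the cold. Its libraries did not overlap, at 6.97 to 8.27 and 8.96 to 10.48 CPM. On that length the cytosolic cold libraries also lay above all thermoneutral ones, but narrowly (lowest cold 18.58, highest thermoneutral 18.56 CPM). Per kilobase of exons the cytosolic class ranged from Cars (3.39 CPM per kilobase over all libraries) to Gars (31.1). The mitochondrial class ranged from Mars2 (0.80), whose gene model is long at 11294 bases, to Lars2. In the cold libraries of iWAT, eWAT and liver the cytosolic median per kilobase of exons ran from 8.37 to 8.92, 8.02 to 9.41 and 13.1 to 15.5 CPM. The mitochondrial median ran from 2.36 to 3.31, 1.49 to 2.485 and 3.34 to 4.39 CPM in the same order.

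Without Lars2 the ratio of summed mitochondrial to cytosolic CPM was 0.456 ± 0.042 in thermoneutral BAT (range 0.417 to 0.504). For thermoneutral iWAT it was 0.289 ± 0.013, for eWAT 0.266 ± 0.010 and for liver 0.223 ± 0.022, and none of these 15 libraries exceeded 0.300. In cold BAT the ratio was 0.517 ± 0.116, and the 5 libraries, from 0.352 to 0.668, overlapped those at thermoneutrality. The sums behind it did not overlap. The 5 thermoneutral libraries held 936 to 1154 CPM of cytosolic and 445 to 491 CPM of mitochondrial genes, the 5 cold ones 1314 to 1912 and 640 to 889 CPM.

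Most of that mitochondrial difference was Cars2. Without Lars2 and Cars2 the mitochondrial sum was 452 ± 16.6 CPM in thermoneutral and 466 ± 39.5 CPM in cold BAT, with overlapping libraries. The ratio without both was then lower in the cold, 0.332 ± 0.069 (0.212 to 0.387) against 0.433 ± 0.040 (0.397 to 0.480), with no overlap between the groups and cold library 1 the lowest. With all 17 genes the ratio was 1.79 ± 0.30 and 1.53 ± 0.32, also overlapping. In iWAT the ratio without both genes was 0.273 ± 0.014 and 0.302 ± 0.017, the other way round. With only Lars2 left out the ratio ran from 0.203 to 0.284 in cold eWAT and from 0.153 to 0.238 in cold liver. Both ranges overlapped the thermoneutral libraries of the tissue, 0.253 to 0.274 and 0.203 to 0.253. These are descriptions, with no test over the class.

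**Figure D5:**
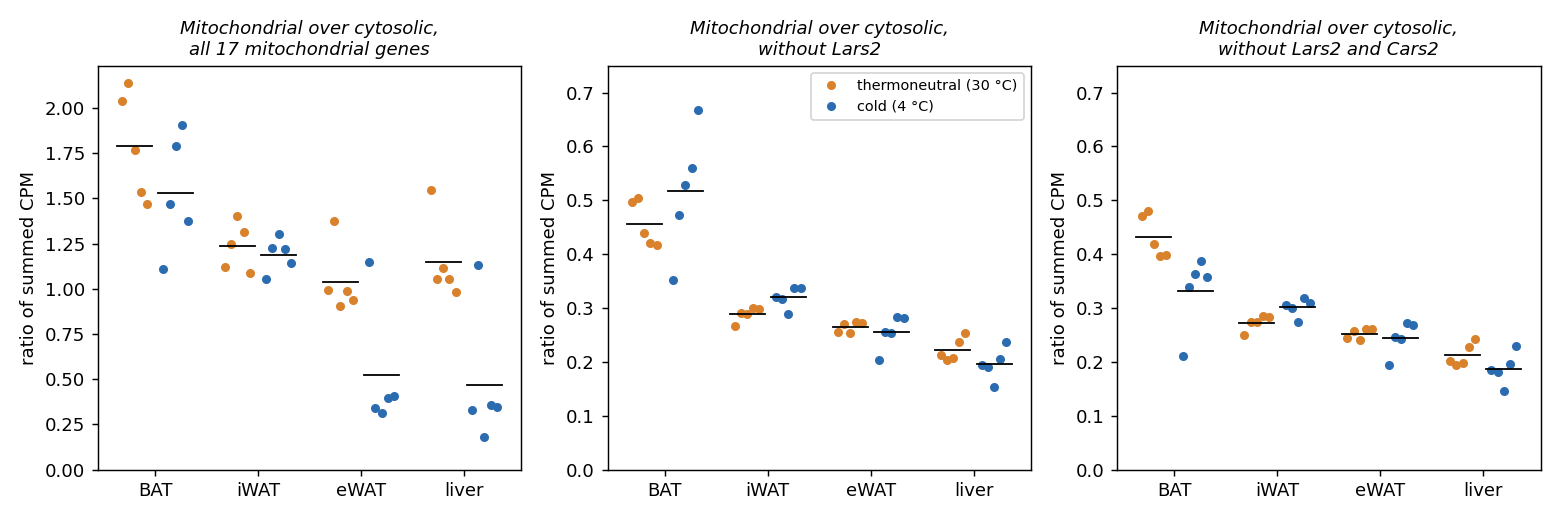
Ratio of the summed CPM of the mitochondrial to that of the cytosolic synthetase genes in each library, with all 17 mitochondrial genes, without Lars2, and without Lars2 and Cars2; the bar is the mean of 5. In BAT the cold mean lies above the thermoneutral one without Lars2 (0.517 against 0.456) and below it without both (0.332 against 0.433).

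In iWAT cold moved fewer members, with 11.5% of 16771 genes called, 7.2% higher and 4.29% lower. In the cytosolic class 3 rose (Gars, Mars1, Yars) and 1 fell (Kars), and in the mitochondrial class 3 rose (Rars2, Iars2, Nars2) and 0 fell. The medians were 0.14 and 0.21, against −0.05 over all genes. The split depends on the scaling: with library totals only, 1 cytosolic gene rose and 2 fell and 2 mitochondrial genes rose, as the median of all genes moved to −0.16, and with RLE size factors 4 and 4 rose and 0 fell. Of all 16771 genes 912 rose and 1067 fell with library totals only, and 1322 rose and 638 fell with RLE size factors. Gars read 60.8, 67.4, 76.5, 72.2 and 55.4 CPM at thermoneutrality and 113, 126, 99.0, 82.4 and 138 CPM in the cold, without overlap (0.72 ± 0.15, adjusted p = 0.0167).

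Rars2 read 12.6, 11.6, 12.5, 12.5 and 10.5 CPM in thermoneutral and 17.8, 19.0, 14.2, 15.9 and 17.2 CPM in cold iWAT, also without overlap (0.45 ± 0.10, adjusted p = 0.0196). Kars lay at 49.9 to 57.8 CPM in thermoneutral and 40.9 to 47.6 CPM in cold iWAT, with no overlap (−0.27 ± 0.08, adjusted p = 0.0459), so that it fell in both BAT and iWAT. The rises of the other members called ran from 0.35 to 0.50. Mars1 lay at 28.0 to 37.4 CPM in thermoneutral and 37.7 to 47.4 in cold iWAT (0.35 ± 0.10, adjusted p = 0.0416). Yars lay at 20.5 to 27.8 and 27.3 to 35.8 CPM, which overlap (0.38 ± 0.10, adjusted p = 0.0442). Iars2, for isoleucine, lay at 65.1 to 90.8 and 100.2 to 130 CPM, without overlap, and rose by 0.48 ± 0.12 (adjusted p = 0.0287). It shares 36.6% of its 50-base stretches with Rab3gap2 on the other strand, which did not pass the test in iWAT (−0.07 ± 0.12, adjusted p = 0.739). Nars2, for asparagine, lay at 6.07 to 7.14 and 7.48 to 11.2 CPM and rose by 0.50 ± 0.14 (adjusted p = 0.0421). None of these 7 calls held under every alternative, but they were not lost equally often. Of 20 alternatives Gars was called in 19, Rars2 in 17, Iars2 in 12, Mars1 in 10, Yars in 8, Nars2 in 7 and Kars in 5. Gars was lost only with a replicate block, which called 108 of all 16771 genes. With the lymphocyte markers as a covariate, where 1749 of all genes were called, 1 cytosolic gene, Gars, and 2 mitochondrial genes, Rars2 and Mars2, were called. The summed level of 8 brown adipocyte markers moved with the cold in iWAT, from 41.9 to 77.1 CPM at thermoneutrality to 127 to 1331 CPM, none at 0. That of 10 adipocyte markers ran from 13680 to 22670 CPM at thermoneutrality and from 25680 to 38910 CPM in the cold, without overlap and with none at 0, and 3 of the 10 rose and 0 fell. The part of either in these results was not tested.

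In eWAT, where 3.78% of 19123 genes were called (1.77% higher and 2% lower), edgeR called 0 of the 20 cytosolic and 0 of the 17 mitochondrial genes. At an unadjusted p under 0.05 there were 4 and 3, where 3647 of the 19123 genes reached that level. DESeq2 called 3 and 3 members, with 2101 of 18726 genes called, and limma-voom 0 and 0, with 699 of 19123. The medians were 0.05 and −0.06, against −0.05 over all genes. Wars was at 168 CPM in cold library 1 and at 36.8 to 54.5 CPM in the other 4 (0.77 ± 0.42, adjusted p = 0.377), and the same library had 2760 CPM summed over 8 epididymis markers, against 2.32 to 891 in the others. The part of epididymal tissue in the level of Wars was not tested, nor was that of the difference in Rn18s-rs5 and 7SK in the eWAT results.

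In liver, where 1.66% of 14472 genes were called (1.01% higher and 0.65% lower), edgeR also called 0 of 20 and 0 of 17, with 5 and 4 at an unadjusted p under 0.05. Of all 14472 genes 3605 reached that unadjusted level. DESeq2 called 3 cytosolic and 1 mitochondrial gene, with 1651 of 16527 genes called, and limma-voom 0 and 0, with 1 of 14472. Cars read 52.8, 59.99, 61.2, 47.6 and 55.6 CPM at thermoneutrality and 25.6, 17.9, 27.5, 24.4 and 53.4 CPM in the cold. Only cold library 5 overlapped the thermoneutral ones (−0.81 ± 0.23, adjusted p = 0.0752). Without that library 3 cytosolic genes rose and 1 fell, and 2 mitochondrial genes rose and 2 fell. The 12 lymphocyte markers summed to 35.9 to 235 CPM in thermoneutral and 3.37 to 20.7 CPM in cold liver, none at 0, and neither their part nor that of the difference in Rn18s-rs5 and 7SK was tested. Transcripts of the mitochondrial genome made up 6.21% to 21.9% of the counts of the cold liver libraries, the highest share being that of library 3, and 5.13% to 7.65% at thermoneutrality.

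The difference of the cold effect between tissues was tested in a model of all 40 libraries. The 3 contrasts share the BAT libraries, so they are given side by side without a count of common genes. For iWAT minus BAT 10 of the 37 genes differed, 5 in each direction, with 18.9% of 20756 genes called (10.6% higher and 8.27% lower). For eWAT minus BAT 17 differed, 5 with a higher and 12 with a lower value outside BAT (23% called, 11.5% in each direction), and for liver minus BAT 16, of which 2 higher and 14 lower (24.1% called, 9.94% higher and 14.2% lower). With library totals only the splits were 2 higher and 8 lower, 2 and 12, and 1 and 15. Those of all 20756 genes were then 1356 and 2307, 2034 and 2236, and 1530 and 3105. The median over the members was −0.12, −0.21 and −0.23, against 0.11, 0.08 and −0.01 over all genes.

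Cars2 differed the most in each contrast. The difference of its log2 cold effects was −3.07 ± 0.24 for iWAT minus BAT (adjusted p = 4.25e-11), −3.61 ± 0.24 for eWAT (adjusted p = 4.67e-13) and −3.56 ± 0.24 for liver (adjusted p = 5.34e-13). Its level in the other tissues stayed between 8.39 and 27.6 CPM, and the highest of these was cold iWAT library 5. Gars differed by −0.47 ± 0.15 for iWAT (adjusted p = 0.0203), −1.06 ± 0.15 for eWAT (adjusted p = 1.58e-06) and −1.21 ± 0.15 for liver (adjusted p = 1.5e-07). Yars differed by −0.68 ± 0.17, −1.01 ± 0.17 and −1.24 ± 0.17 in the same order, with adjusted p of 0.00366, 3e-05 and 1.29e-06.

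Mars1 differed in the other direction between iWAT and BAT, by 0.66 ± 0.14 (adjusted p = 0.000998), and between eWAT and BAT by 0.55 ± 0.14 (adjusted p = 0.0042). It fell in BAT and rose in iWAT.

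Among thermoneutral libraries most mitochondrial synthetases were higher in BAT than in white fat under TMM scaling. Against iWAT 15 of the 17 were higher in BAT and 0 lower, while of the 20 cytosolic genes 9 were higher and 1 lower, with 47.3% of all genes called, 22.6% higher and 24.7% lower. Against eWAT 15 were higher and 0 lower, and of the cytosolic genes 9 were higher and 2 lower (61.9% of all genes called, 23.5% higher and 38.4% lower). The mitochondrial medians were 0.80 and 1.09, the cytosolic ones 0.26 and 0.25, and those of all genes −0.08 and −0.23. These directions depend on the scaling: with library totals as the only scaling 4 members were higher and 17 lower against iWAT, and 5 higher and 17 lower against eWAT, where the median of all genes moved to −0.90 and −1.17. Of all 20756 genes 1328 were then higher and 12219 lower against iWAT, and 1397 and 15183 against eWAT. Transcripts of the mitochondrial genome made up 22.3% to 31.3% of the counts in thermoneutral BAT, 6.45% to 8.76% in iWAT and 4.15% to 6.58% in eWAT. The part of that difference in the shift was not tested.

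Aars2, the mitochondrial alanyl-tRNA synthetase, differed the most. It ran from 28.0 to 34.7 CPM in thermoneutral BAT, 8.53 to 11.8 in iWAT, 7.11 to 10.2 in eWAT and 21.4 to 27.6 in liver. BAT lay above all the other tissues, and iWAT and eWAT overlapped. The log2 difference was 1.61 ± 0.11 from iWAT (adjusted p = 1.57e-14) and 1.93 ± 0.11 from eWAT (adjusted p = 1.18e-16). Yars2 ran from 19.1 to 23.2 CPM in BAT, 6.53 to 9.36 in iWAT and 6.68 to 7.76 in eWAT (1.35 ± 0.12 and 1.56 ± 0.13). Rars2 differed from iWAT by 0.97 ± 0.09 and Tars2, for threonine, from eWAT by 1.19 ± 0.08. With library totals only, the call of Rars2 was lost (adjusted p = 0.0917).

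Thermoneutral liver and BAT were compared in the same way. Here the separate block of thermoneutral liver columns and the tissue cannot be told apart. Of the 20 cytosolic genes 13 were lower and 2 higher in thermoneutral BAT than in liver, and of the mitochondrial genes 7 were higher and 2 lower (63.4% of all genes called, 34% higher and 29.4% lower). With library totals only, 18 of the 37 members were higher and 10 lower in BAT, in place of 9 and 15, as the median of all genes moved from 0.06 to 0.38. Of all 20756 genes 8713 were then higher and 4521 lower. Tars, the cytosolic threonyl-tRNA synthetase, ran from 165 to 236 CPM in liver and 32.7 to 35.4 in BAT (−2.51 ± 0.12, adjusted p = 4.38e-19). Aars ran from 273 to 375 CPM in liver and 66.0 to 105 in BAT (−1.88 ± 0.13, adjusted p = 8.91e-15), and it shares 22.4% of its 50-base stretches with Exosc6. Exosc6 was listed at 0 CPM in all 40 libraries, so reads of the shared stretches may stand under Aars, and its levels are uncertain to that extent. Rars2 was higher in BAT, 21.2 to 25.3 CPM against 9.51 to 11.2 (1.20 ± 0.09, adjusted p = 1.84e-14).

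The white depots differed in few members. Between thermoneutral iWAT and eWAT 1 cytosolic gene (Kars) and 4 mitochondrial genes were higher in iWAT and 0 members were lower, where 36.9% of all genes were called, 12.7% higher and 24.2% lower. Tars2 was higher by 0.29 ± 0.08 (adjusted p = 0.00634), Hars2 by 0.34 ± 0.10 (adjusted p = 0.00749) and Aars2 by 0.32 ± 0.10 (adjusted p = 0.0152). With library totals only, 0 members were higher and 2 lower, where 1673 of 20756 genes were higher and 5795 lower. Equal replicate numbers deviated together between these groups, and a fit of these 10 libraries alone with the number as a block called 5 members, all higher in iWAT, against 7 without the block.

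Other genes of tRNA charging and mitochondrial translation were counted from lists. Mitochondria have no enzyme for glutamine of their own: Ears2 loads the tRNA with glutamate, and the amidase of Qrsl1, Gatb and Gatc converts it. In cold BAT Ears2 rose (0.41 ± 0.12), Qrsl1 (0.57 ± 0.09, adjusted p = 0.00018) and Gatc (0.21 ± 0.06, adjusted p = 0.0113) rose, and Gatb fell (−0.36 ± 0.08, adjusted p = 0.00192). Mtfmt, which formylates the initiator methionyl-tRNA that Mars2 makes, fell (−0.32 ± 0.11, adjusted p = 0.0276).

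Of 29 genes of mitochondrial translation and tRNA processing 23 rose and 3 fell in cold BAT, where 30.2% of all genes rose and 30% fell, and the median was 0.45 against −0.04 over all genes. Gfm1, the elongation factor, rose by 1.53 ± 0.10, Trmt10c, a subunit of the RNase P that frees tRNAs, by 1.47 ± 0.09, Nsun3, a methyltransferase of the methionine tRNA, by 1.60 ± 0.11, and Trmu, which thiolates tRNAs, by 1.01 ± 0.08. In iWAT 11 of the 29 rose and 1 fell (7.2% and 4.29% of all genes), median 0.28 against −0.05, Trmt10c and Nsun3 among them (0.84 ± 0.15 and 0.64 ± 0.11). In eWAT 1 rose (1.77% of all genes) and in liver 0 did (1.01%).

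Of the 16 regulators of mitochondrial biogenesis 10 rose and 1 fell (Myc) in cold BAT, median 0.53. Together 11 of 16 were called, against 60.2% of all genes, of which 30.2% rose. Esrra and Esrrb, estrogen-related receptors, rose by 1.23 ± 0.06 and 4.07 ± 0.21, Tfam, which packs mitochondrial DNA, by 0.96 ± 0.07, and Polrmt, the mitochondrial RNA polymerase, by 1.11 ± 0.08. In iWAT 6 rose and 0 fell, against 7.2% and 4.29% of all genes, Ppargc1b (1.40 ± 0.24) and Ppargc1a (1.55 ± 0.34) among them.

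Of 31 genes of the amino acid and integrated stress response 14 rose and 6 fell in cold BAT, with a median of 0.95 against −0.04 over all genes. The number called, 20 of 31, is near the 60.2% of all genes called there, 30.2% higher and 30% lower. Slc3a2, a chain of amino acid exchangers, rose by 2.46 ± 0.21, Cth, which makes cysteine from cystathionine, by 3.21 ± 0.30, and Atf4 itself by 1.47 ± 0.32 (adjusted p = 0.00265). Eif4ebp1, a repressor of cap-dependent translation, fell by 1.65 on the log2 scale and Nupr1, a stress-induced regulator, by 1.40. Asns, the asparagine synthetase, did not pass the test in BAT (0.26 ± 0.15, adjusted p = 0.153) and rose in iWAT (1.46 ± 0.17, adjusted p = 0.00212), where 7 of 30 tested genes rose and 3 fell (7.2% and 4.29% of all genes). In eWAT 4 rose and 1 fell (1.77% and 2% of all genes), and in liver 0 rose and 1 fell (1.01% and 0.65%).

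Of the partners of cytosolic charging, the 3 scaffold genes of the complex had 1 that rose in BAT and in iWAT, Eef1e1 (1.13 ± 0.15 and 0.56 ± 0.14). Of 12 further partners 1 rose and 5 fell in BAT, where 60.2% of all genes were called, 30.2% higher and 30% lower. Sepsecs, which makes selenocysteine on its tRNA, rose by 0.91 ± 0.09 there and by 0.48 ± 0.09 in iWAT. Dtd1, which removes D-amino acids from tRNA, fell by 1.33 on the log2 scale in BAT, Tarsl2, a second threonyl-tRNA synthetase gene of the cytosol, by 1.10, and Aarsd1, an editing protein for mischarged alanine tRNA, by 0.44. Aarsd1 rose in iWAT (0.53 ± 0.13, adjusted p = 0.0312), where Xpot, the export receptor of tRNA, rose too (0.41 ± 0.09) and Eef1d, a subunit of the factor that recharges the elongation factor, fell (−0.32 ± 0.09).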

How the data were processed

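The members and lists were chosen with earlier results of these data known. The authors deposited expected counts per gene symbol, raw and without normalization; they were whole numbers. Per the submitters' processing notes FastQC, STAR 2.7.8a, RSEM 1.3.0, DESeq and the builds GRCm39 and GRCm38 were used, with roles not given in the sources used here. Per the labels' protocols libraries were made with TruSeq v2, a kit that does not mark strand, so overlapping genes are uncertain. Symbols shared by several genes (78, with 0.0564% to 0.654% of a library's counts, none a member) were summed, and 0 columns were without a sample.

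Each tissue was fitted in R 4.3.3 with edgeR 4.0.16 (robust quasi-likelihood, TMM, filterByExpr with minimum count 10 and total 15) on 10 libraries, and differences between tissues in 1 model of 40 libraries and 8 group means. P-values were adjusted by Benjamini-Hochberg over all genes tested. They measure the spread between separate samples, which the labels do not tie to separate animals. Of 12 pairs of groups of the same exposure, only thermoneutral iWAT and eWAT had all 5 correlations over genes between libraries of equal number at 0.107 or more (0.107 to 0.244). All 5 were also positive for thermoneutral BAT and iWAT (0.0945 to 0.631), thermoneutral BAT and eWAT (0.0100 to 0.0881) and cold iWAT and eWAT (0.0336 to 0.357). Such pairing is taken from the data and not from the labels. A fit of the 10 thermoneutral iWAT and eWAT libraries with the number as a block was therefore added after seeing the data. No such fit of 2 groups alone was made for the other pairs. DESeq2 1.42.0, limma 3.58.1 (voom), other scalings and filters, a replicate block and leaving out each library were alternatives. Every library held 46508261 counts or more. Counting error was not measured, and it is larger for members of low level, such as Pars2 at 1.00 CPM in cold liver library 3. The procedure was tested on simulated data.

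Lengths, overlaps and shared 50-base stretches came from GENCODE release 21 for mouse. The stretches are those of each member's longest annotated transcript, and its other exons were not searched. Values were given for the 3 called members of smallest p per tissue, class and direction and per contrast, for Gars, Kars and the members of highest and lowest level per length, and for up to 4 called genes per list and tissue. Other members named by value (Cars2's neighbour Naxd, Wars in eWAT, Tars and Cars in BAT, Yars2, Farsa and Wars in BAT, Rn18s-rs5 and the stress genes of BAT library 1) were chosen after their values were seen. The values of 1 member and 1 promoter window are not reported here; counts and sums over the classes include that member.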

Additional observations from a re-analysis of the deposited data

Results flagged for a closer look

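Of 176 sets of 5 values (22 genes in 8 groups), 18 had a library set apart from the other 4 by more than 0.71 of the group's range, where chance gives about 1 in 20, or 8.8. Of these, 6 were cold BAT library 1, which was the highest of its group in Gars (291 CPM), Aars (175 CPM), Yars (76.4 CPM), Iars (73.0 CPM), Tars (59.2 CPM) and Cars (23.5 CPM).

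In eWAT, thermoneutral library 1 was the highest in Gars (65.3 CPM) and Yars (30.6 CPM), thermoneutral library 3 the lowest in Iars2 (71.2 CPM), and cold library 1 the highest in Lars2 (959 CPM). In liver, cold library 2 was the highest in Lars2 (1599 CPM), cold library 5 the highest in Cars (53.4 CPM), and cold library 3 the lowest in Sars2 (7.19 CPM). Thermoneutral liver library 5 was the highest in Sars2 (15.4 CPM) and library 1 the lowest in Aars2 (21.4 CPM). In cold iWAT, library 5 was the highest in Cars2 (27.6 CPM), library 4 the lowest in Kars (40.9 CPM), and library 3 the lowest in Vars2 (15.8 CPM).

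The cold effect differed between tissues by the test of the difference itself. For iWAT minus BAT the log2 difference was −3.07 for Cars2 and 0.66 for Mars1. For eWAT minus BAT it was −3.61 for Cars2, −1.06 for Gars and −1.01 for Yars, and for liver minus BAT −3.56 for Cars2, −1.21 for Gars and −1.24 for Yars. These contrasts share the BAT libraries.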

How the results depend on the processing

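Of the members called, 20 of 24 were called under every alternative run in BAT (the others being Hars2, Mars1, Qars and Wars2), 0 of 7 in iWAT, and 5 of 10, 9 of 17 and 12 of 16 in the differences of the cold effect for iWAT, eWAT and liver minus BAT, with 0 of the other sign in any. Between thermoneutral tissues many changed sign with library totals only: 16 of 25 for BAT against iWAT and 14 of 26 against eWAT, 6 of them called in each case, and 1 of 24 against liver. Of the 3 members named for each of these contrasts 0 changed sign. The counts of BAT moved little, from 12 to 15 cytosolic and 9 to 11 mitochondrial genes.

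The iWAT counts, 4 cytosolic and 3 mitochondrial, rested on small margins. They were 1 and 1 with no low-count filter (1217 of 31050 genes called), 7 and 6 with 8 group means in 1 model (2887 of 20756), and 0 and 0 with a replicate block (108 of 16771). With the lymphocyte covariate they were 1 and 2, and the mitochondrial one was 5 by DESeq2. Leaving out 1 library moved them to 1 to 2 and 0 to 5. In eWAT the cytosolic count of 0 became 1 with RLE size factors (788 of 19123 genes called) and 2 with the stricter filter (905 of 15445). By DESeq2 (2101 of 18726) the cytosolic and the mitochondrial count were both 3. Without 1 library each reached 1. In liver the counts of 0 and 0 became 3 and 1 by DESeq2 (1651 of 16527 genes called) and 3 and 3 with 8 group means in 1 model (2562 of 20756). Without cold library 5 they were 4 and 4, and the mitochondrial one was 1 without cold library 2. The count for eWAT minus BAT, 17, was 10 with no low-count filter and 11 without cold BAT library 1 or thermoneutral eWAT library 1. That for iWAT against eWAT, 5, was 2 with library totals only, 3 with no low-count filter and 2 to 10 without 1 library. The cause was not tested.

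The mitochondrial to cytosolic ratio was recomputed with members left out, the cases without Lars2 and without Lars2 and Cars2 being chosen after seeing the data. Without Gars and Kars it was 2.15 and 1.93 in thermoneutral and cold BAT and 1.44 and 1.42 in iWAT. Without Lars2 it was 0.456, 0.517, 0.289 and 0.320 in those groups, 0.266 in thermoneutral eWAT and 0.223 in thermoneutral liver. Without Lars2 and Cars2 it was 0.433, 0.332, 0.273, 0.302, 0.253 and 0.213 in the same order. The construction, a gene left out, is the cause of these shifts.

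Equal replicate numbers did not pair the cold and thermoneutral samples of a tissue: the correlation of deviations between cold and thermoneutral libraries of one number ran from −0.16 to 0.47 in BAT, −0.65 to 0.37 in iWAT, −0.71 to 0.27 in eWAT and −0.11 to 0.16 in liver. With the replicate block BAT had 13 cytosolic and 9 mitochondrial calls, eWAT and liver 0, and the differences between tissues 10, 16 and 17. Of all genes that block called 8609 of 15288 in BAT, 22 of 19123 in eWAT and 5 of 14472 in liver.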
